A study of Mus musculus with 4 samples.

Results

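Transcription factors that mark the layers of the cortex and the regions of the brain were followed in single-nucleus RNA-seq of mouse brain. The list held 38 genes given by symbol, out of 31053 genes in the deposited count matrices, and each of the 38 symbols was found in all 4 matrices. The genes were taken by name, and the list was chosen with earlier results of these data known. The genotypes compared were wild type (WT) and Csf1r+/-, the latter of which carries 1 disrupted copy of the gene for the colony-stimulating factor 1 receptor and is called HET here. All mice were female, 2 months old, of the C57/BL6 strain and untreated, and the Csf1r+/- allele was present in every cell type rather than driven by a Cre line. Each genotype had 2 libraries (WT1, WT2, HET1 and HET2), and the series names 2 mice per genotype, so n = 2 in every group. The study describes a further mouse of each genotype, which was not analysed here. The study asked how reduced signaling through this receptor affects microglia and the cells around them, and the comparison here asks how neurons fared by the transcription factors that give them identity.

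Neurons are commonly sorted by the transmitter they release. VGLUT1 (Slc17a7) marks most excitatory neurons of cortex and hippocampus, VGLUT2 (Slc17a6) marks those of thalamus, midbrain and brainstem, and Gad1 and Gad2 make GABA in inhibitory neurons. Within each of these classes, combinations of transcription factors specify the layer or region during development, and many stay on in the adult, which makes them the usual labels of neuron types. Cux2 and Rorb, for example, label upper cortical layers, Foxp2 and Tle4 the corticothalamic neurons of the deepest layer, Tcf7l2 and Lef1 the thalamus, and Lhx6 and Sox6 interneurons born in the medial ganglionic eminence.

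Nuclei with 500 to 50000 unique molecular identifiers (UMIs, 1 per captured RNA molecule), over 200 genes and less than 5% of UMIs from mitochondrial genes entered (52132 in all, of which 9589 to 16114 came from each library). Median depth of the kept nuclei was 5490 and 4636 UMIs in WT and 7454 and 6656 in HET, so that both HET libraries were deeper. Csf1r, checked first, had 130 and 125 CPM (UMIs of a gene scaled to the total of all UMIs in the summed nuclei) among microglia-marker nuclei of WT, against 69.3 and 44.5 CPM for HET, while neurons went the other way, with a Csf1r UMI in 0.528% and 0.914% of them in WT and in 3.90% and 3.58% in HET. WT2 stood apart by its glial RNA: the summed level of 4 oligodendrocyte markers in VGLUT1 neurons was 61.4 CPM there against 13.9, 18.6 and 14.5 CPM in WT1, HET1 and HET2. Pairs of libraries shared 33 to 68 barcodes among kept nuclei. P-values of the genotype contrasts measure the spread between these 4 libraries. Those between classes, and of class with genotype, measure the spread left after differences between libraries were taken out.

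Neurons were nuclei with at least 2 UMIs of Snap25, Syt1 and Rbfox3 together and no more than 1 of 12 markers of other cells. A neuron joined a class with at least 2 UMIs of the leading transmitter gene and more than 2 times the UMIs of the other classes. This gave 2111, 2420, 2491 and 2536 VGLUT1 neurons in WT1, WT2, HET1 and HET2, 570, 400, 391 and 445 VGLUT2 neurons, and 1971, 1841, 1522 and 1216 GABA neurons. Between 47.9% and 68.5% of neurons joined no class and were left out of the comparisons. The VGLUT1 share of neurons was 14.3% and 19.2% in WT and 29.4% and 24.7% in HET, a difference of 10.3 percentage points (exact permutation test, two-sided, p = 0.33, which is the lowest reachable with 2 against 2) that was 0.985 points when classes were set on nuclei thinned to 3000 UMIs, where the VGLUT1 class itself was smaller (4.17% and 8.52% of neurons in WT, 7.60% and 7.05% in HET). Among classed neurons alone, VGLUT1 neurons made up 45.4% and 51.9% in WT and 56.6% and 60.4% in HET, and with thinned classes 30.4% and 44.4% against 39.9% and 47.2%. Markers outside the class definition also separated the classes. In GABA neurons 4 GABA markers summed to 6055 to 6954 CPM, against 1708 to 1987 CPM in VGLUT2 and 129 to 239 CPM in VGLUT1 neurons, most of it Erbb4 and Nxph1. Thalamic markers summed to 2299 to 2766 CPM in VGLUT2, 277 to 344 CPM in GABA and 230 to 258 CPM in VGLUT1 neurons.

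The 38 transcription factors divided the 3 classes sharply. By edgeR's quasi-likelihood test on summed counts with the library as a block, 35 of the 38 differed between GABA and VGLUT1 neurons at an adjusted p under 0.05 (19 higher in GABA, 16 lower), where 52.5% of 17890 genes passed. Between VGLUT2 and VGLUT1 neurons 29 of 38 passed (15 higher in VGLUT2, 14 lower) against 43.0% of all genes, and between VGLUT2 and GABA neurons 30 of 38 passed (17 and 13) against 18.3%. The median absolute log2 fold change of the 38 was 2.39, 1.17 and 1.34 in the 3 contrasts, beside 0.33, 0.33 and 0.20 over all genes tested. Of 53 other neuronal transcription factors tested, 47, 41 and 35 passed, with medians of 1.47, 1.40 and 0.73. The highest mean level fell in VGLUT1 neurons for 11 of the 38, in VGLUT2 neurons for 14 and in GABA neurons for 13, and for 28 of them every library of that class lay above every library of the other classes.

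**Figure D1:**
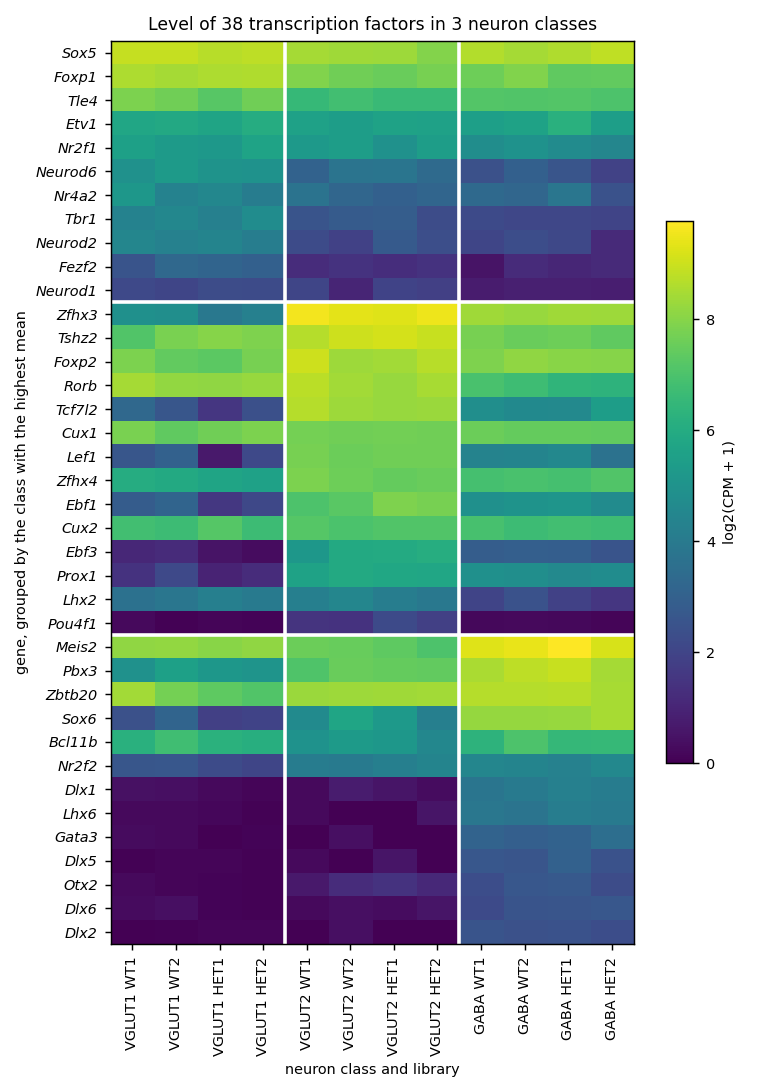
Level of each of the 38 transcription factors, as log2(CPM + 1), in the summed VGLUT1, VGLUT2 and GABA neurons of the 4 libraries (columns), with genes (rows) grouped by the class with the highest mean level. Dlx1, Dlx2, Dlx5, Dlx6, Lhx6 and Gata3 are near 0 outside GABA neurons, and Tcf7l2, Lef1, Ebf1, Ebf3 and Prox1 are high in VGLUT2 and low in VGLUT1 neurons.

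The genes highest in VGLUT1 neurons were those of cortical and hippocampal pyramidal cells. Neurod2 and Neurod6, basic helix-loop-helix factors of pyramidal neurons, illustrate them. Neurod6 stood at 30.1, 38.9, 31.1 and 30.7 CPM in VGLUT1 neurons of WT1, WT2, HET1 and HET2, at 7.497 to 12.9 CPM in VGLUT2 neurons and at 2.78 to 6.98 CPM in GABA neurons. Neurod2 stood at 21.3, 18.3, 20.4 and 16.7 CPM in VGLUT1 neurons and below 5.75 CPM in every library of both other classes. Against GABA neurons, Neurod6 was 2.98 ± 0.12 higher on the log2 scale (± SE, n = 4 libraries, edgeR adjusted p = 1.86e-12) and Neurod2 2.92 ± 0.15 higher (adjusted p = 4.54e-11), and neither class overlapped the VGLUT1 libraries. Neurod1, of the same family, was low throughout, at 3.11 to 3.79 CPM in VGLUT1 and 0.658 to 0.837 CPM in GABA neurons.

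The promoters of Neurod2 and Neurod6 are shown because these factors share a class and bind the E-box, CANNTG, themselves. Each line gives the 250 bases before the annotated start, 5′ to 3′ on the gene's strand, from RefSeq (GRCm38.p6), with capitals marking CANNTG, which reads the same on both strands, and TAAT or its reverse complement ATTA, the core that homeodomain proteins recognise. Neurod2 lies at chr11:98329646-98329895 on the minus strand and Neurod6 at chr6:55681264-55681513 on the minus strand. In all, 33 of the 38 genes matched the promoter table, with 57 starts.
Neurod2: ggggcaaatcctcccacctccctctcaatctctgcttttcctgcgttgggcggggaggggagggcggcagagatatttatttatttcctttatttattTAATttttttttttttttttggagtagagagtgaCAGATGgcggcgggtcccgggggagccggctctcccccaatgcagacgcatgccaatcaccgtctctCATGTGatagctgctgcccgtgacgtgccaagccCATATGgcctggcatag
Neurod6: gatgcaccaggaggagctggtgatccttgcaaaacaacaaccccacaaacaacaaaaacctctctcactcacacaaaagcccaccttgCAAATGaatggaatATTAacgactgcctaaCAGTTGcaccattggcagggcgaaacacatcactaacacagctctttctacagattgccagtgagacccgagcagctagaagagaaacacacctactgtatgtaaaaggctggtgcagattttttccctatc
Neurod2 held 3 CANNTG matches and Neurod6 held 2. Such a match is common, since 66.2% of 32851 promoter windows of this length held CANNTG and 54.9% held TAAT or ATTA, with 57.9% and 52.6% of the 57 windows of the listed genes.

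Tbr1, which directs the identity of deep-layer neurons, was at 19.0, 21.8, 18.3 and 25.7 CPM in VGLUT1 neurons and at 2.999 to 3.58 CPM in GABA neurons, 2.88 ± 0.12 lower on the log2 scale (adjusted p = 6.78e-12). Fezf2, the selector of subcerebral projection neurons in layer 5, was low but graded the same way, with 4.83, 8.77, 7.94 and 6.95 CPM in VGLUT1 and 0.439 to 1.30 CPM in GABA neurons, and had the largest fall of the 38 towards GABA (-3.06 ± 0.17, adjusted p = 1.22e-10). Lhx2, a selector of cortical fate, fell by 2.46 ± 0.18 from VGLUT1 to GABA neurons (adjusted p = 4.20e-09). In VGLUT2 neurons Lhx2 stood at 13.9 to 21.4 CPM against 11.5 to 17.4 CPM in VGLUT1 neurons, a difference of 0.06 ± 0.16 that missed the threshold (adjusted p = 0.816). These 3 genes, with the Neurod family, are the 6 with the largest falls from VGLUT1 to GABA neurons. Nr4a2, a marker of the claustrum and of layer 6b, was at 34.7 CPM in VGLUT1 neurons of WT1 and at 18.9, 21.7 and 16.3 CPM in the others, and was lower in VGLUT2 neurons by 1.56 ± 0.20 (adjusted p = 6.19e-06).

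Other cortical layer factors were shared between classes. Foxp1 was at 346 to 386 CPM in VGLUT1, 186 to 244 CPM in VGLUT2 and 168 to 241 CPM in GABA neurons, and Tle4 at 150 to 226, 91.5 to 110 and 130 to 143 CPM. Sox5, at 416 to 479, 248 to 346 and 348 to 461 CPM, and Etv1, at 51.2 to 65.8, 42.2 to 48.8 and 43.6 to 72.4 CPM, differed by no more than 0.74 on the log2 scale in any contrast. Bcl11b (Ctip2), known both from layer 5 and from striatal neurons, showed no difference past the threshold between GABA and VGLUT1 neurons (0.07 ± 0.07, adjusted p = 0.434) and was lower in VGLUT2 neurons than in VGLUT1 neurons by 1.53 ± 0.09 (adjusted p = 3.86e-10). Nr2f1 (COUP-TFI), which sets the posterior part of the cortex, ran from 36.3 to 50.3 CPM in VGLUT1 down to 21.5 to 30.4 CPM in GABA neurons.

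The upper-layer factors were likewise shared. Cux1 was at 165 to 227 CPM in VGLUT1 neurons, 201 to 210 CPM in VGLUT2 neurons and 173 to 189 CPM in GABA neurons, and its small deficit in VGLUT2 against VGLUT1 (-0.19 ± 0.07, adjusted p = 0.0435) turned to 0.01 when the fit was scaled to library totals. That scaling moved the 38 genes by a median of 0.21 and 0.20 on the log2 scale in the contrasts of GABA and VGLUT2 with VGLUT1, and Cux1 was the one called direction it turned. Cux2 differed from VGLUT1 to VGLUT2 neurons by 0.06 ± 0.08 and Rorb by 0.01 ± 0.07, both short of the threshold. Rorb did separate both from GABA neurons: it was at 280 to 349 CPM in VGLUT1, 307 to 431 CPM in VGLUT2 and 78.5 to 125 CPM in GABA neurons, 1.88 ± 0.07 below VGLUT1 (adjusted p = 2.70e-12).

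VGLUT2 neurons carried the thalamic pair Tcf7l2 and Lef1, partners of beta-catenin in Wnt signaling. Tcf7l2 was at 410, 319, 304 and 317 CPM in WT1, WT2, HET1 and HET2, at 22.9 to 42.5 CPM in GABA neurons and at 1.91 to 8.76 CPM in VGLUT1 neurons. Lef1 was at 216, 190, 199 and 200 CPM, with 11.9 to 22.8 CPM in GABA and 0.597 to 7.12 CPM in VGLUT1 neurons. Both stood far above VGLUT1 neurons, by 5.95 ± 0.21 (adjusted p = 1.12e-12) and 5.57 ± 0.28 (adjusted p = 6.46e-11). Zfhx3 and Zfhx4, large zinc-finger homeodomain proteins, followed the same order. Zfhx3 ran at 621 to 775 CPM in VGLUT2, 306 to 330 CPM in GABA and 13.8 to 29.0 CPM in VGLUT1 neurons, and Zfhx4 at 176 to 229, 117 to 139 and 47.1 to 66.0 CPM.

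The early B-cell factors Ebf1 and Ebf3, which in brain mark neurons of the brainstem, thalamus and striatum, were the next group. Ebf3 was 6.06 ± 0.26 higher in VGLUT2 than in VGLUT1 neurons (adjusted p = 8.48e-12), the widest difference of that contrast, with 35.3 to 66.5 CPM against 0.252 to 1.32 CPM. Ebf1 had 132, 152, 231 and 215 CPM in VGLUT2 neurons of WT1, WT2, HET1 and HET2, against 2.03 to 7.92 CPM in VGLUT1 neurons. Prox1, known from the dentate gyrus, the thalamus and interneurons of the caudal ganglionic eminence, was at 47.9 to 59.6 CPM in VGLUT2 and 23.3 to 29.2 CPM in GABA neurons and at 0.955 to 3.44 CPM in VGLUT1 neurons. Tshz2 and Foxp2 were also highest in VGLUT2 neurons, at 414 to 565 CPM and 318 to 516 CPM, though neither was restricted to them. Pou4f1 (Brn3a), a factor of the habenula and brainstem, had the widest rise from GABA to VGLUT2 neurons (3.90 ± 0.46, adjusted p = 8.62e-06). It rests on low counts, with 1.68 to 3.59 CPM in VGLUT2 neurons and 7 UMIs in all in GABA neurons.

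In GABA neurons the Dlx genes stood out. These homeodomain factors specify forebrain inhibitory neurons and lie in the genome as linked pairs. Dlx1 was at 12.8, 15.4, 17.8 and 16.2 CPM in GABA neurons of WT1, WT2, HET1 and HET2 and at 0.108 to 0.345 CPM, or 24 UMIs in all, in VGLUT1 neurons (5.84 ± 0.20, adjusted p = 4.54e-13). So few UMIs carry counting error of their own, for which no interval was computed here. Dlx2 was at 3.998 to 4.82 CPM, Dlx5 at 4.55 to 7.09 CPM and Dlx6 at 3.58 to 5.22 CPM in GABA neurons, each above every library of the other classes. VGLUT2 neurons held so few reads of some of these genes that only pooled ratios are given: 1 UMI of Dlx2 against 204 in GABA neurons (ratio of pooled levels 73.3, exact 95% interval for counting error alone 13.0 to 2908) and 3 UMIs of Dlx5 against 254 (30.4, interval 10.3 to 148).

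The Dlx1 and Dlx2 promoters are shown as the members of one linked pair with one class pattern. Their starts lie 17.3 kb apart on chromosome 2, Dlx1 at chr2:71529195-71529444 on the plus strand and Dlx2 at chr2:71546755-71547004 on the minus strand, so that the genes point towards each other. The 250 bases before each start follow, with the same capitals.
Dlx1: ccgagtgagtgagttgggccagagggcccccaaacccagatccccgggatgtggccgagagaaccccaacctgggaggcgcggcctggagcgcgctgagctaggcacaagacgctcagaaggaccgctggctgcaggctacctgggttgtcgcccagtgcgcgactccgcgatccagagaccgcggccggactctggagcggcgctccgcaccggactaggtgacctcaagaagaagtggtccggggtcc
Dlx2: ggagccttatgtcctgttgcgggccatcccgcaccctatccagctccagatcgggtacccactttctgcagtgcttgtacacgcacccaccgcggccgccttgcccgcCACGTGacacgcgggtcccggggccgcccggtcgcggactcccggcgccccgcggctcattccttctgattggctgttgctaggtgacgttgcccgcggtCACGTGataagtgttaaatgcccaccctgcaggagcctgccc
Dlx2 held 2 CANNTG matches and Dlx1 held none, and neither window held TAAT or ATTA.

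Lhx6 and Sox6, which act in sequence in interneurons of the medial ganglionic eminence, had 2 of the largest rises from VGLUT1 to GABA neurons. Lhx6 was at 13.7, 12.6, 16.5 and 15.2 CPM in GABA and 0.0360 to 0.189 CPM, or 13 UMIs in all, in VGLUT1 neurons (6.58 ± 0.23, adjusted p = 6.60e-13). In VGLUT2 neurons 3 UMIs stood against 662 in GABA neurons (ratio 79.2, interval 27.0 to 385). Sox6 was at 295, 295, 304 and 360 CPM in GABA and 2.57 to 7.78 CPM in VGLUT1 neurons (6.04 ± 0.22, adjusted p = 1.08e-12) and was also present in VGLUT2 neurons at 17.5 to 51.9 CPM. Gata3 and Otx2, selectors of midbrain inhibitory neurons, were at 6.79 to 10.7 CPM and 3.78 to 5.62 CPM in GABA neurons. Gata3 had 1 UMI in VGLUT2 neurons against 365 in GABA neurons (ratio 131, interval 23.4 to 5191), whereas Otx2 was detected in VGLUT2 neurons at 0.592 to 1.67 CPM.

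Meis2 and Pbx3, homeodomain proteins that bind DNA together, led a broader GABA group. Meis2 was at 625, 689, 870 and 583 CPM in GABA neurons, 258 to 293 CPM in VGLUT1 and 130 to 188 CPM in VGLUT2 neurons, and Pbx3 at 365, 444, 492 and 349 CPM, 29.99 to 45.6 CPM and 133 to 186 CPM. Nr2f2 (COUP-TFII), a factor of the caudal ganglionic eminence, was at 18.5 to 22.7 CPM in GABA, 15.4 to 20.1 CPM in VGLUT2 and 3.096 to 5.33 CPM in VGLUT1 neurons, with overlapping libraries and no difference past the threshold between VGLUT2 and GABA neurons (-0.24 ± 0.14, adjusted p = 0.294). Zbtb20, a repressor that marks hippocampal neurons and astrocytes, was at 356 to 420 CPM in GABA and 311 to 337 CPM in VGLUT2 neurons, a difference short of the threshold (-0.28 ± 0.15, adjusted p = 0.262), and varied in VGLUT1 neurons from 137 to 338 CPM. Some of the list is not neuronal only. At 1000 UMIs per nucleus, Zbtb20 had a UMI in 63.3% of 1898 oligodendrocyte-marker nuclei and 67.9% of 558 endothelial-marker nuclei, Prox1 in 16.3% of the former, and Ebf1 and Lef1 in 53.9% and 42.7% of the latter.

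Combinations were read in nuclei thinned to 3000 UMIs. This left out 65 and 112 VGLUT1, 25 and 24 VGLUT2 and 326 and 340 GABA nuclei of WT1 and WT2. In HET1 and HET2 fewer were left out, at 28 and 34 VGLUT1, 12 and 19 VGLUT2 and 136 and 133 GABA nuclei. For each pair within a class, the number of nuclei with both genes was divided by the number expected if the 2 shares were independent within a library. These ratios describe how often the genes share a nucleus and carry no test, since nuclei of 1 library are not replicates. Of 206 pairs in VGLUT1 neurons with at least 50 nuclei, the highest was Foxp2 with Tle4, found in 20.2%, 16.6%, 14.1% and 19.0% of nuclei of WT1, WT2, HET1 and HET2 (31.8%, 25.0%, 23.2% and 28.9% before thinning), a ratio of 2.26 ± 0.22 (SD, n = 4). The next 5 were Foxp2 with Fezf2 at 2.23 ± 0.28, Foxp2 with Zfhx3 at 2.20 ± 0.53, Tle4 with Fezf2 at 1.98 ± 0.30, Fezf2 with Bcl11b at 1.97 ± 0.53 and Foxp2 with Bcl11b at 1.94 ± 0.38, so that all 6 joined deep-layer genes, apart from Zfhx3.

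The nuclei with Foxp2 and Tle4 had the other genes of corticothalamic neurons. All 4 markers left in the layer 6 list were higher in them than in the remaining VGLUT1 nuclei in every library. Syt6, a synaptotagmin of layer 6, had the largest ratio of all genes, at 87.6, 139, 148 and 110 CPM against 8.69 to 10.7 CPM, and Rprm, Hs3st4 and Garnl3 were higher by 2.29, 2.11 and 1.77 on the log2(CPM + 1) scale. Arhgap25, Col12a1, Col5a1, Sema5a and Rell1 completed the 6 genes with the largest ratio, all at 2.31 or more. Tle4 with Sox5 (25.9%, 23.1%, 19.1% and 24.6%) gave a weaker version of the same set, led, that is with the largest ratios, by Syt6 and Foxp2.

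Deep and upper layers hardly met. Foxp2 shared a nucleus with Cux2 in 147 nuclei where 519 were expected (ratio 0.29 ± 0.02), Foxp2 with Lhx2 in 20 where 86.4 were expected (0.25 ± 0.08), and Fezf2 with Cux2 in 9 where 52.1 were expected (0.20 ± 0.21). These 3 pairs had the smallest ratios among 207 with at least 50 nuclei expected and were chosen after the values were seen. Cux2 with Rorb, the pair of layer 4, was found in 9.97%, 8.28%, 12.5% and 10.4% of VGLUT1 nuclei (22.4%, 17.5%, 28.3% and 23.1% before thinning), with a ratio of 1.40 ± 0.06, and the gene with the largest ratio in its nuclei was Rspo1, a layer 4 gene, at 22.4 to 29.0 CPM against 4.58 to 7.33 CPM. Cux1 with Cux2 had 14.8%, 10.2%, 17.1% and 13.6%, led by Col11a1 and Gm16599.

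Other VGLUT1 combinations covered fewer nuclei. Tshz2 with Etv1 was found in 2.39%, 3.68%, 4.10% and 4.20% of nuclei, and these were led by Gm26883, Nxph1 and Kcnip1. The near-projecting layer 5 markers Slc17a8, Vwc2l, Trhr and Lypd1 were each higher in every library, by 2.92, 2.44, 2.18 and 2.01 on the log2(CPM + 1) scale, with Slc17a8 found in 7.65% of the nuclei. Nr4a2 with Sox5 was found in 5.77%, 3.29%, 3.90% and 3.40%, led by Oprk1, the kappa opioid receptor, and by Rgs12, Cntnap3, Cobll1, Gfra1 and Gnb4. Fezf2 with Bcl11b was rare, with 6, 27, 30 and 23 nuclei, and was led by Glra2. Bcl11b with Zbtb20 was found in 6.99%, 6.15%, 5.36% and 3.36% of nuclei, led by Ndst4. Prox1 with Zbtb20 and Neurod1 with Prox1, which would label dentate granule cells, were seen in 25 and 1 nuclei in all, too few to describe.

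In VGLUT2 neurons Tcf7l2 with Lef1 gave a clear thalamic set, in 109, 73, 61 and 83 nuclei of WT1, WT2, HET1 and HET2 (29.1%, 26.0%, 24.8% and 29.2% of nuclei before thinning), at a ratio of 1.80 ± 0.14. All 5 remaining thalamic relay markers were higher in these nuclei, Prkcd by 3.42, Plekhg1 by 2.89, Synpo2 by 2.72, Rgs16 by 2.48 and Ntng1 by 1.61 on the log2(CPM + 1) scale. Prkcd, a kinase of first-order relay neurons, was at 213, 121, 152 and 158 CPM against 9.61 to 22.4 CPM. Prox1 joined the same pair, at ratios of 2.29 ± 0.23 with Lef1 and 1.92 ± 0.19 with Tcf7l2, as did Rorb with Prox1 (1.75 ± 0.20) and Etv1 with Lef1 (1.79 ± 0.45). Meis2 stayed apart, with ratios of 0.43 ± 0.11 with Lef1 and 0.57 ± 0.05 with Rorb.

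Ebf1 with Ebf3 was the most frequent partnership of VGLUT2 neurons relative to expectation, at 2.74 ± 0.32 among 172 pairs. The pair was found in 4.59%, 6.12%, 9.76% and 7.75% of nuclei of WT1, WT2, HET1 and HET2, and before thinning in 8.77%, 10.8%, 16.6% and 15.1%. Ebf2, of the same family, led these nuclei at 358, 510, 282 and 223 CPM against 16.9 to 34.1 CPM. Zfhx3 with Zfhx4 covered 25.6% to 32.7% of VGLUT2 nuclei at a ratio near 1.25, and Meis2 with Pbx3, 6.10% to 8.99%, was led by Meis1. Pou4f1 with Ebf1 and Nr2f1 with Nr2f2 were met in 8 and 11 nuclei.

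GABA neurons gave the highest ratio of the 3 classes. Lhx6 with Sox6 was found in 2.49%, 2.73%, 3.54% and 3.79% of nuclei at a ratio of 2.99 ± 0.28, the highest of 227 pairs, and Sst, the somatostatin gene, was higher in these nuclei by 1.28 on the log2(CPM + 1) scale. Nr2f2 with Prox1, at 2.76 ± 0.99 and 52 nuclei, had Vip at 253, 385, 378 and 176 CPM against 25.1 to 54.0 CPM, beside Cxcl14 and Adarb2, as caudal ganglionic eminence interneurons do. Pairs across such groups were rarer than expected: Lhx6 with Meis2 was met in 17 nuclei where 82.8 were expected, and Sox6 with Zfhx3 in 115 where 461 were expected (0.25 ± 0.06). Another group joined Zfhx4 with Gata3 (2.40 ± 0.13), Lef1 with Zfhx4 (2.37 ± 0.11), Rorb with Lef1 (2.60 ± 0.66) and Foxp2 with Lef1 (2.38 ± 0.79). Zfhx3 with Zfhx4 covered 14.9%, 14.7%, 14.1% and 17.7% of GABA nuclei, led by 2700069I18Rik and Otx2os1.

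Striatal neurons were read from Foxp1, Foxp2, Meis2, Bcl11b and Ebf1. Foxp1 with Ebf1 was found in 2.01%, 3.06%, 1.37% and 1.57% of GABA nuclei and had Drd1, the dopamine receptor of the direct pathway, and the striatal gene Rgs9 higher by 1.88 and 2.20 on the log2(CPM + 1) scale. Foxp1 with Meis2, in 13.98%, 19.3%, 14.2% and 12.1%, had Drd2 and Penk, genes of the indirect pathway, higher by 2.17 and 2.11 and Drd1 higher by 1.39, and Foxp2 with Meis2, in 11.6%, 14.9%, 10.4% and 9.14%, had Drd1 and Tac1 higher by 2.16 and 1.77. Foxp1 with Bcl11b was no more frequent than its shares predict (422 nuclei, 412 expected), though its nuclei carried both Drd1 and Drd2. Pbx3 with Meis2, the most frequent of the fixed GABA combinations at 20.9%, 27.8%, 29.1% and 18.4%, was led instead by Cpa6, Lgr6 and Frmd7. Dlx1 with Dlx6 and Gata3 with Otx2 were met in 3 and 4 nuclei.

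The shares were set beside those in nuclei of other cells, where free RNA, doublets and the cells' own expression were not told apart. At 1000 UMIs per nucleus, in nuclei of other cells with medians of 2562 to 2794 UMIs (oligodendrocyte-marker nuclei, against 4932 to 11705 UMIs in the neuron classes), Sox6 had a UMI in 2.58%, beside 16.2% of GABA and 0.460% of VGLUT1 neurons. Lhx6 had a UMI in 0.263% of them beside 1.25% of GABA neurons, and Tbr1 in 0.421% beside 2.31% of VGLUT1 neurons. Foxp2 at 7.69%, Tle4 at 10.96% and Cux2 at 8.22% came closer to the 14.5%, 16.5% and 10.2% of VGLUT1 neurons. In microglia-marker nuclei, with medians of 1766 to 7519 UMIs, most of these shares were higher, at 4.03% for Sox6, 1.07% for Tbr1, 9.82% for Foxp2 and 16.7% for Tle4, the last at the level of VGLUT1 neurons, while Lhx6 was at 0.0761% and Cux2 at 7.99%.

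**Figure D2:**
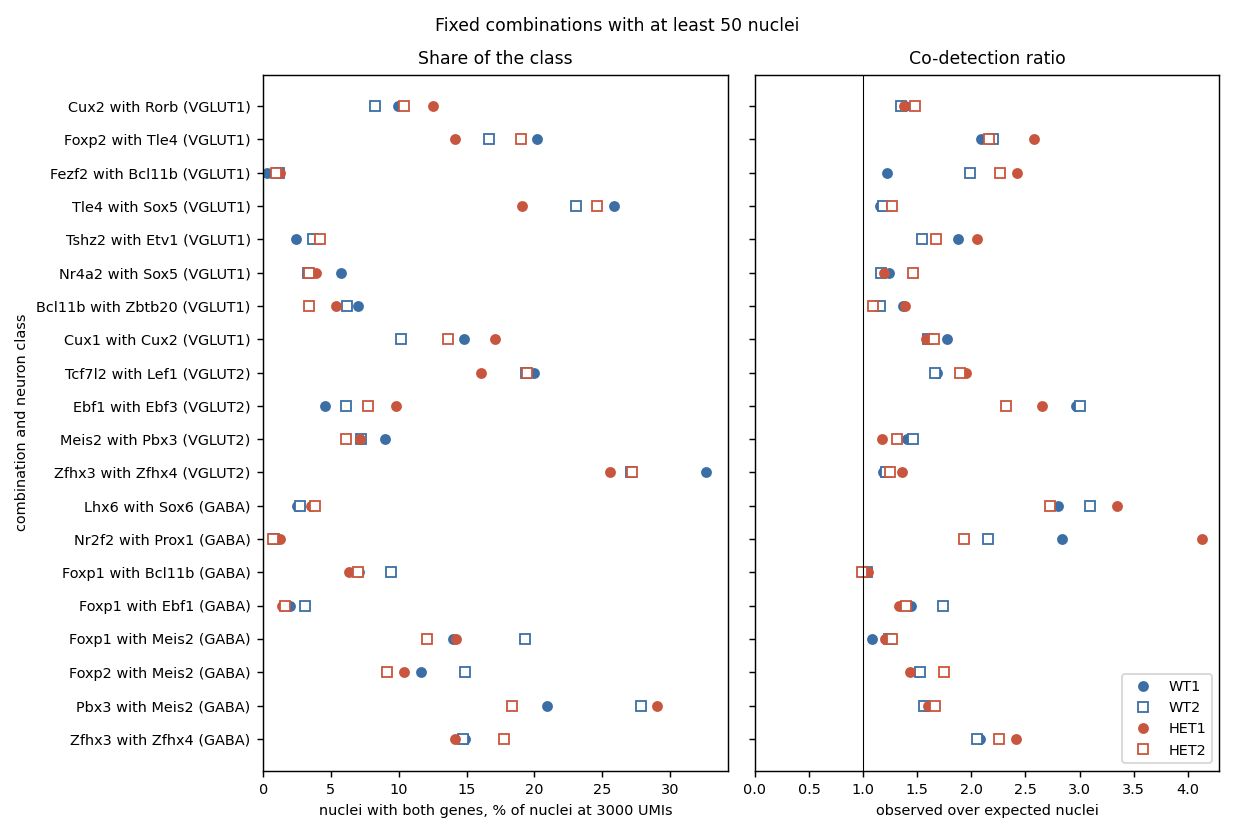
Share of nuclei of the class with a UMI of both genes (left, percent of nuclei thinned to 3000 UMIs) and observed over expected nuclei with both (right) for the 20 fixed combinations with at least 50 nuclei, 1 point per library. Lhx6 with Sox6, Nr2f2 with Prox1 and Ebf1 with Ebf3 lie furthest above the line at 1, and Foxp1 with Bcl11b lies on it.

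None of the 26 fixed combinations could be called between genotypes, since 2 libraries against 2 cannot give an exact permutation p below 0.33. The genotypes did not overlap in 10 of the 26 (5 higher and 5 lower in HET), against 42.0% of 605 pairs of the list with at least 50 nuclei. Ebf1 with Ebf3 was among them, higher in HET by 3.40 percentage points, as were Cux2 with Rorb, higher by 2.31, and Lhx6 with Sox6, higher by 1.05. The difference, HET minus WT, was -3.47 points for Foxp2 with Meis2, -2.21 for Bcl11b with Zbtb20 and -1.07 for Foxp1 with Ebf1. Single libraries set much of these sizes: without WT2 the striatal pairs Foxp2 with Meis2 and Foxp1 with Ebf1 stood at -1.85 and -0.54 points, without HET2 Bcl11b with Zbtb20 stood at -1.21, and without HET1 Cux2 with Rorb stood at 1.23. GABA neurons of WT2 also had the most Rgs9, at 40.9, 81.6, 45.9 and 51.1 CPM in WT1, WT2, HET1 and HET2. Ppp1r1b was at 1.68, 5.30, 2.44 and 2.89 CPM. The sum of 3 striatal markers (912, 1339, 1107 and 978 CPM) was nearly all Pde10a, at 869, 1253, 1059 and 924 CPM. Pde10a was not particular to GABA neurons, with 834, 1326, 1218 and 912 CPM in VGLUT1 neurons. The part of these genes in the differences was not tested. Tshz2 with Etv1 and Pou4f1 with Ebf1 were higher in HET, the latter on 2, 0, 4 and 2 nuclei of WT1, WT2, HET1 and HET2. Meis2 with Pbx3 was lower, at 8.99% and 7.18% in WT against 7.12% and 6.10% in HET. Foxp1 with Bcl11b was also lower, at 7.05% and 9.46% against 6.35% and 7.02%. For the rest the libraries overlapped, with Foxp2 with Tle4, for one, 1.88 points apart.

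Within a class, no member could be called between genotypes. HET was compared with WT on the summed counts of each class by edgeR's quasi-likelihood test, in genes with at least 40 counts. After adjustment no member passed 0.05 in any class. Over all genes 0%, 0.00781% and 0% passed in VGLUT1, VGLUT2 and GABA neurons (0, 1 and 0 genes), and at an unadjusted p under 0.05 there were 443, 285 and 326. At an unadjusted p under 0.01, the kind of threshold used for these data in the original work, 4 of 30 members tested passed in VGLUT1 neurons, 1 of 30 in VGLUT2 neurons and 1 of 36 in GABA neurons, where 0.451%, 0.203% and 0.277% of all genes did. The libraries of the genotypes did not overlap for 15, 11 and 9 members, that is 15 of 30, 11 of 30 and 9 of 36, beside 24.0%, 28.2% and 25.5% of all genes. The median log2 fold change of the members was -0.10, -0.05 and -0.02, against 0.01, 0.00 and 0.00 over all genes. Among the other neuronal transcription factors 2 of 42, 2 of 38 and 0 of 50 passed the unadjusted 0.01.

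In VGLUT1 neurons the 4 members were all lower in HET and all belonged by level to another class. Zfhx3 had 29.8 and 25.8 CPM in the WT libraries against 14.3 and 18.0 CPM (CPM scaled by TMM from here on), a log2 fold change of -0.78 ± 0.18 (edgeR adjusted p = 0.9998). Ebf1 was at 6.38 and 7.42 CPM against 2.10 and 3.38 CPM (-1.34 ± 0.29, edgeR adjusted p = 0.9998). Neither gene had a HET library within the WT range. Sox6 was at 4.52 and 7.29 CPM against 2.65 and 2.90 CPM (-1.09 ± 0.30, edgeR adjusted p = 0.9998), and Ebf3 at 1.15 and 1.24 CPM against 0.432 and 0.254 CPM on 75 counts in all (-1.77 ± 0.45, edgeR adjusted p = 0.9998). Leaving out WT2 took Sox6 to -0.72 and Ebf3 to -1.73. Before thinning, Zfhx3 had a UMI in 10.7% to 15.3% of VGLUT1 nuclei per library, above the 10% required in the original work. Ebf1 (1.16% to 3.13%), Sox6 (1.85% to 4.67%) and Ebf3 (0.237% to 0.868%) lay below it.

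Some markers of the other classes were also lower in HET in the same neurons. The 4 GABA markers summed to 188, 239, 129 and 129 CPM in VGLUT1 neurons of WT1, WT2, HET1 and HET2, with none of them at 0. Of these, Erbb4 was at 120 and 158 CPM in WT against 69.7 and 59.6 CPM, while Nxph1 overlapped (63.1 and 69.1 against 54.9 and 64.8 CPM). The 5 markers of caudal ganglionic eminence interneurons summed to 213 and 196 CPM against 145 and 147 CPM. Adarb2 was at 130 and 101 CPM against 55.3 and 66.1 CPM, Cnr1 at 56.9 and 56.2 against 55.2 and 44.7 CPM, and Lamp5, Vip and Ndnf overlapped. The 5 thalamic markers summed to 258, 257, 230 and 248 CPM in WT1, WT2, HET1 and HET2, nearly all of it Ntng1 at 239, 241, 223 and 235 CPM. Of the others, Plekhg1 was at 7.72 and 7.22 CPM in WT against 2.60 and 3.96 CPM in HET, Prkcd at 2.50 and 2.12 CPM against 0.448 and 1.55 CPM, Synpo2 at 8.03 and 6.60 CPM against 3.22 and 6.98 CPM, and Rgs16 below 1 CPM throughout. Endothelial markers, which mark cells rich in Ebf1 RNA, summed to 1.68 and 3.30 CPM in WT against 1.22 and 1.33 CPM, and 6 microglial markers, of cells where Zfhx3 had a UMI in 41.9% of 1314 nuclei, to 23.2 and 39.7 CPM against 30.9 and 46.2 CPM. The part of these in the 4 results was not tested. With the highest doublet scores left out, Zfhx3 stood at -0.64 (edgeR adjusted p = 0.9998) and Ebf1 at -1.33 (edgeR adjusted p = 0.9998), Sox6 at -0.98, and Ebf3 no longer had 40 counts.

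Another 6 members passed an unadjusted 0.05 in VGLUT1 neurons. Prox1, Tcf7l2 and Lef1 were lower in HET by 1.09, 1.15 and 1.56 on the log2 scale, again from low levels. Single libraries moved these values: Lef1 stood at -3.26 without HET2 and at -0.78 without HET1, and Tcf7l2 at -1.82 without HET2, -0.68 without HET1 and -0.63 without WT1. Zbtb20 had 348 and 198 CPM in the WT libraries against 168 and 138 CPM (-0.83 ± 0.25, edgeR adjusted p = 0.9998), with WT1 far above the rest. Without WT1 Zbtb20 stood at -0.37. Without WT2 Zbtb20 stood at -1.20 and Prox1 at -0.59, and with the highest doublet scores left out Prox1 stood at -1.69. Tshz2 and Lhx2 were higher, Tshz2 at 142 and 210 CPM against 265 and 237 CPM (0.51 ± 0.19, edgeR adjusted p = 0.9998) and Lhx2 at 11.8 and 12.6 CPM against 18.0 and 15.3 CPM (0.44 ± 0.17, edgeR adjusted p = 0.9998). Tshz2 was at 0.80 without WT2 and at 0.26 without WT1. Of the 26 members that missed 0.01, 20 lay within 0.5 of 0, and Lhx6, Dlx1, Dlx2, Dlx5, Dlx6, Gata3, Otx2 and Pou4f1 had too few counts to test. The cortical factors Foxp1, Tle4, Sox5, Cux1, Cux2, Rorb, Tbr1, Fezf2 and Neurod1, Neurod2 and Neurod6 were all among those that missed it.

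**Figure D3:**
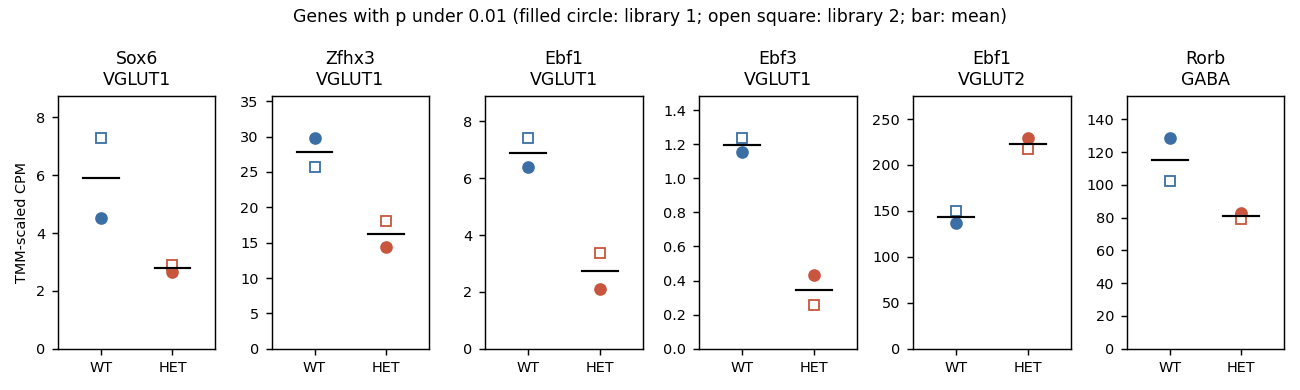
TMM-scaled CPM of the 6 gene and class pairs with an unadjusted p under 0.01, with WT in blue, HET in red, library 1 as filled circles, library 2 as open squares and the group mean as a bar. HET libraries lie below both WT libraries for Sox6, Zfhx3, Ebf1 and Ebf3 in VGLUT1 and Rorb in GABA neurons and above them for Ebf1 in VGLUT2 neurons.

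In VGLUT2 neurons Ebf1, the one member past the unadjusted 0.01, was higher in HET. The WT libraries had 136 and 150 CPM and the HET libraries 230 and 217 CPM, a log2 fold change of 0.64 ± 0.11 (edgeR adjusted p = 0.9999), and both HET libraries lay above both of WT. Without WT2 the value for Ebf1 was 0.71 and without WT1 0.58, fits with 1 WT library left that hold no spread between WT mice. By the likelihood-ratio test of edgeR it was 0.64 (adjusted p = 0.0213). Among the alternatives that kept all 4 libraries, no other had an adjusted p under 0.05. The 14 alternatives in all ran from 0.40 to 0.71. Endothelial markers summed to 3.95 and 5.03 CPM in these neurons of WT and to 2.87 and 3.11 CPM in HET, below the WT libraries. Ebf3 went with it, at 36.6 and 58.9 CPM against 61.9 and 67.0 CPM (0.46 ± 0.20, edgeR adjusted p = 0.9999), though WT2 lay close to HET. Ebf3 turned on the WT libraries, with 0.82 without WT2 and 0.14 without WT1. Like Ebf3, Meis2 passed an unadjusted 0.05, at 195 and 176 CPM against 162 and 131 CPM (-0.34 ± 0.13, edgeR adjusted p = 0.9999), and stood at -0.20 without HET2. The thalamic genes did not pass an unadjusted 0.05, with Tcf7l2 at -0.26 ± 0.14 and Lef1 closer to 0, at -0.05 ± 0.12. In bulk sums of this kind a larger share of Ebf1 neurons and more Ebf1 RNA per neuron cannot be told apart, and thinned to 3000 UMIs Ebf1 was seen in 18.7%, 17.0%, 25.9% and 22.5% of VGLUT2 nuclei of WT1, WT2, HET1 and HET2 (27.0%, 22.8%, 33.8% and 30.8% before thinning).

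In GABA neurons Rorb, past the unadjusted 0.01, was lower in HET, at 129 and 102 CPM against 83.0 and 79.2 CPM (-0.51 ± 0.13, edgeR adjusted p = 0.9999). Its share of thinned nuclei was 17.0% and 15.7% in WT and 12.6% and 12.2% in HET. With the highest doublet scores left out Rorb was at -0.32 (edgeR adjusted p = 0.9999), and without WT1 at -0.33. Foxp1, at 201 and 234 CPM against 168 and 174 CPM (-0.35 ± 0.11, edgeR adjusted p = 0.9999), was the one other member past an unadjusted 0.05, and stood at -0.22 without WT2. Dlx1, Dlx2, Dlx5, Dlx6, Lhx6, Sox6, Gata3, Otx2, Meis2 and Pbx3 did not pass, with log2 fold changes from -0.11 to 0.33. Only Neurod1 and Pou4f1 had too few counts to test.

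**Figure D4:**
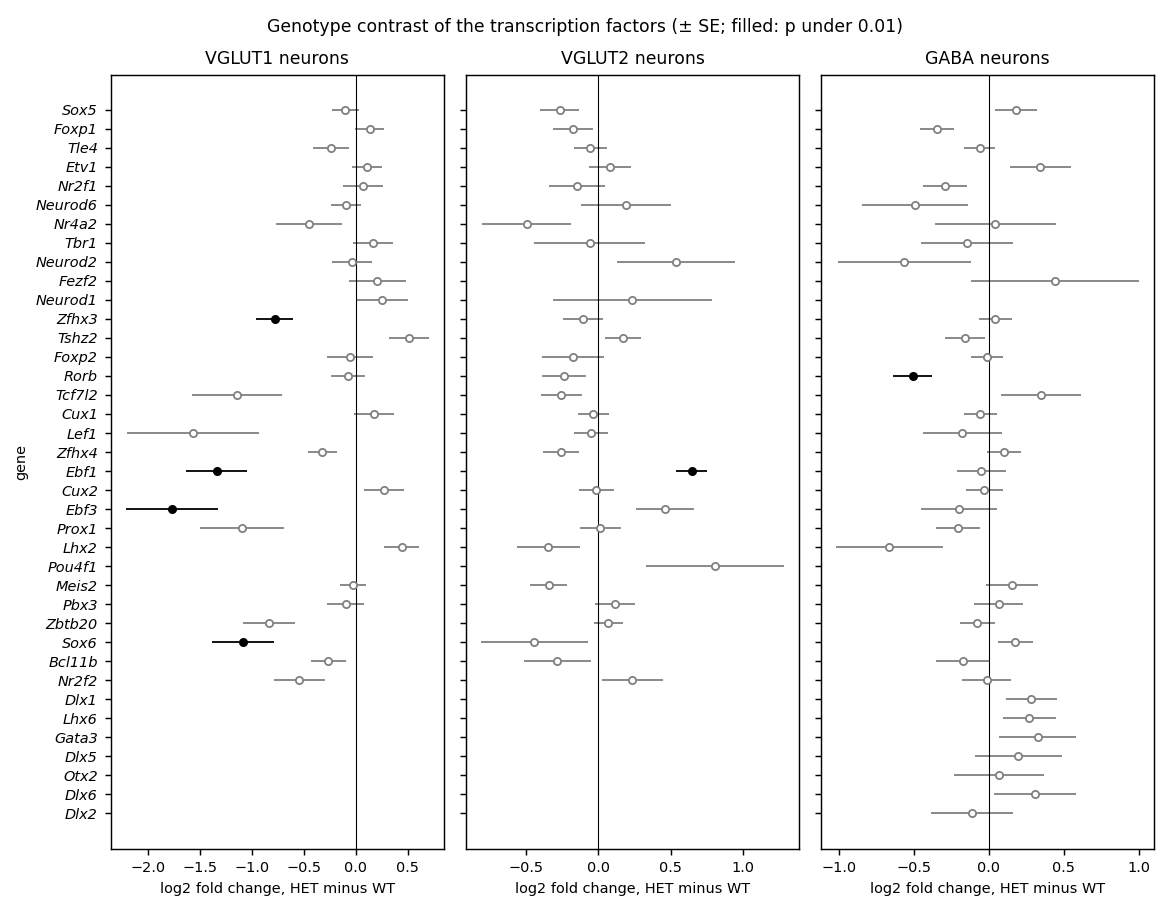
Log2 fold change of HET against WT (± SE, edgeR) of each member tested in VGLUT1, VGLUT2 and GABA neurons, with genes in the order of the level map and filled points for an unadjusted p under 0.01. Most members sit within 0.5 of 0 in each class, and the lowest values in VGLUT1 neurons belong to genes that are highest in VGLUT2 or GABA neurons.

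Whether the genotype difference itself differed between classes was tested with a term for genotype within class in the fit of all 12 sums. Between GABA and VGLUT1 neurons Zfhx3 and Ebf1 passed an adjusted p of 0.05, where 0.112% of 17890 genes did (13 members and 315 genes had an unadjusted p under 0.01). Between VGLUT2 and VGLUT1 neurons Ebf1 passed, where 0.0224% did (9 members and 235 genes under the unadjusted 0.01), and between VGLUT2 and GABA neurons no member passed, where 0% did (2 members and 119 genes). Ebf1 changed by 1.99 ± 0.22 more in VGLUT2 than in VGLUT1 neurons on the log2 scale (edgeR adjusted p = 0.00289). Its level was higher in HET in the former and lower in the latter, but neither was called within its class (edgeR adjusted p = 0.9999 and 0.9998). The VGLUT1 side rested on 473 counts in all.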

How the data were processed

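Nuclei of whole brain from 4 mice were profiled by 10x single-nucleus RNA-seq. The deposited matrices hold counts of UMIs per gene and barcode, which the authors made with Cell Ranger 5.0.0 per the file headers, on mm10 per the labels, and whether intronic reads were counted is not given in the sources used here. Nuclei with 500 to 50000 UMIs, over 200 genes and less than 5% mitochondrial UMIs were kept. Sums of counts over the nuclei of a class in a library were tested with edgeR 4.0.16 (R 4.3.3, TMM scaling, quasi-likelihood test, Benjamini-Hochberg adjustment), genotypes in genes with at least 40 counts, and classes and their interaction with genotype over 12 sums with the library as a block. Co-detection was read in nuclei thinned to 3000 UMIs and background shares at 1000 UMIs. Doublets stayed in, and 7.68% to 12.9% of nuclei with the highest Scrublet scores (scanpy 1.11.5, at 0.8% per 1000 nuclei) were left out as an alternative. DESeq2 1.42.0, other scalings, filters and class rules, a replicate block and leaving out each library were the other alternatives. Leaving out a library leaves 1 in its genotype, so for named genes the effect size alone is given there. On simulated counts 89.0%, 94.0% and 94.5% of 200 genes changed by 1.5 on the log2 scale were recovered in VGLUT1, VGLUT2 and GABA neurons. Of the genes left unchanged in the simulation, 0.889%, 0.936% and 1.13% were called, which is a share of unchanged genes and not of the calls. Smaller changes, such as most of those seen here between genotypes, were not simulated. Every member past a threshold was named, up to 12, beyond which the 6 with the largest and the 6 with the smallest fold change were. For pairs, the fixed combinations and the 6 highest ratios were named. Intervals cover counting error only. The members and gene lists were chosen with earlier results of these data known. The sum of 1 further marker list is not reported here.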

Additional observations from a re-analysis of the deposited data

Results flagged for a closer look

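The genotype difference of Zfhx3 was larger in GABA than in VGLUT1 neurons by 0.84 on the log2 scale (SE 0.12, edgeR adjusted p = 0.0188), since it was lower in HET in VGLUT1 neurons and near 0 in GABA neurons. In alternatives chosen after seeing the data, 7 of 11 kept an adjusted p under 0.05, and with the highest doublet scores left out it was 0.65 (edgeR adjusted p = 0.126).

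For Ebf1 the same difference between GABA and VGLUT1 neurons was 1.31 (SE 0.23, edgeR adjusted p = 0.0441), and 7 of 11 alternatives kept the call, with values from 0.77 to 1.84. Between VGLUT2 and VGLUT1 neurons it was 1.99 (SE 0.22, edgeR adjusted p = 0.00289), and 9 of 11 kept it, with values from 1.43 to 2.39. The 11 alternatives include fits that leave out a library and so leave 1 in its genotype, which weakens these counts. With all 4 libraries kept, the highest edgeR adjusted p of Ebf1 between GABA and VGLUT1 neurons was 0.126, the same as for Zfhx3. Between VGLUT2 and VGLUT1 neurons it was 0.0190. No alternative turned the direction of any of the 3 differences.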

How the results depend on the processing

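The number of genes with an unadjusted p under 0.01 between genotypes moved in VGLUT1, VGLUT2 and GABA neurons from 74, 26 and 42 to 168, 63 and 115 with edgeR's likelihood-ratio test, to 113, 9 and 26 with DESeq2, and to 27, 9 and 7 among genes detected in 10% of nuclei. In GABA neurons it moved to 343 with no filter and to 64 with at least 1 transmitter UMI. With a replicate block it was 153, 58 and 102, with 6, 1 and 1 members. Deviations of same-numbered libraries had r = -0.05, -0.07 and -0.02 across genes, which cannot exclude that they were handled together, and the labels give only a number. Leaving out each library gave 20 to 368, 15 to 427 and 52 to 328 genes, and 0 to 6, 1 to 9 and 1 to 2 members, with 0 in VGLUT1 without HET1 and 9 in VGLUT2 without WT2. Members numbered 1 in VGLUT1 neurons at detection in 10% of nuclei, 0 in VGLUT2 and 2 in GABA neurons at 1 transmitter UMI, 2 in GABA with no filter and 0 there without the highest doublet scores. Detection in 10% of nuclei, which tests fewer genes, left 20 members called between GABA and VGLUT1 and 19 between VGLUT2 and GABA neurons. Numbers of members and genes tested are not given here for these alternatives, so a lost call and an untested member cannot be told apart. The VGLUT1 share difference was 0.985 points, and that of VGLUT2 -0.0128 points, with classes set on thinned counts, and VGLUT2 0.396 points at 1 transmitter UMI. Where no construction is named, the cause was not tested. In the main setting the VGLUT2 share was 3.86% and 3.18% of neurons in WT and 4.62% and 4.33% in HET. The GABA share was 13.3% and 14.6% in WT against 18.0% and 11.8% in HET, higher in HET on average. With classes set on thinned counts it was 7.97% and 9.04% against 10.0% and 6.12%, lower on average. Of 152 alternatives for these summaries 116 gave like values and 36 moved. A turn of direction was not scored for shares of neurons.

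With 2 libraries per genotype, exact tests cannot pass 0.05, and genes of a few UMIs carry wide counting error.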
